A study of Homo sapiens with 4 samples.

Results

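The genes examined here encode the translation initiation and elongation factors, the proteins that bring the ribosome to an mRNA, place it on the start codon and drive it along the coding sequence. They were taken by name: protein-coding genes whose symbol starts with EIF1 to EIF6 or with EEF1 or EEF2, without the eIF2 kinases and without the Y-linked copy of eIF1A. The rule found 64 genes among 58735, of which 51 carry an EIF name and 13 an EEF name. The study treated glioblastoma cells with brusatol (Bru), a quassinoid of Brucea seeds, and made 1 RNA library of each of U251 Control, U251 Bru, U87 Control and U87 Bru, which gives 4 libraries. U251 and U87 are established human glioblastoma lines bought from a cell bank. All were grown in DMEM with fetal bovine serum. The Bru cells received brusatol dissolved in DMSO for 48 h at the half-inhibitory concentration, while the Control cells went without brusatol. In other assays of the study the Control cells received DMSO alone. The dose given to each line for these libraries is not stated, and the time course of viability used different doses in U251 and U87.

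Initiation starts when eIF2, loaded with GTP and the initiator tRNA, joins eIF1, eIF1A, eIF3 and eIF5 on the small ribosomal subunit, and eIF2B recharges eIF2 with GTP afterwards. The eIF4 proteins bind the mRNA cap and unwind the leader, and the 4E-BPs hold the cap-binding protein eIF4E inactive. During elongation eEF1A delivers aminoacyl-tRNA, eEF2 moves the ribosome by a codon and eIF5A, which carries the modified residue hypusine, helps it through difficult peptides. Quassinoids are known inhibitors of protein synthesis, and many mRNAs of this machinery, together with those of the ribosomal proteins, start with a C and a run of pyrimidines, the 5′ TOP, through which growth signals control their translation.

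The starts of these transcripts are shown first, because the pyrimidine run is the one sequence feature by which the factors are commonly grouped. The RefSeq table of start sites (GRCh38.p14) held 51 of the 64 genes, with 68 start sites. A start was called a pyrimidine start when its first base was C and at least the next 4 bases were C or T. It was found for 13 of the 51 factors, or 25.5%, against 5.14% of the 27305 genes in the table, and for 4.07% of all 35116 start sites. This background was not limited to genes expressed in these cells, for which counts are given further on. Each line below runs from 35 bases before the start to 15 bases into the transcript, with the pyrimidine run in capitals. The elongation factors eEF1A, eEF2 and eEF1B2 come first, then factors of initiation.
EEF1A1, chr6:73521018-73521067, minus strand: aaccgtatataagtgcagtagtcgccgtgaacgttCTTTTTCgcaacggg
EEF2, chr19:3985449-3985498, minus strand: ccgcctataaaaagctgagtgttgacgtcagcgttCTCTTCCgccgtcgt
EEF1B2, chr2:206159860-206159909, plus strand: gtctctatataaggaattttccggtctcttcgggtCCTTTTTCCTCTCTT
EIF4B, chr12:53006421-53006470, plus strand: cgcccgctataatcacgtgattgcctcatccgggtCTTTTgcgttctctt
EIF4A2, chr3:186783542-186783591, plus strand: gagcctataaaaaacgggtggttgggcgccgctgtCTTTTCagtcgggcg
EIF2A, chr3:150546752-150546801, plus strand: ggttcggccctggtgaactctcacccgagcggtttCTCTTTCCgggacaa
EIF3D, chr22:36529152-36529201, minus strand: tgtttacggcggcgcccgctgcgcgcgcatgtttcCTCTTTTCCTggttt
EIF3F, chr11:7987302-7987351, plus strand: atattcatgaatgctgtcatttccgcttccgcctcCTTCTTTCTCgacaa
EIF3K, chr19:38619153-38619202, plus strand: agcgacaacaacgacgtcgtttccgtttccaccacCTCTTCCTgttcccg
EIF2S3, chrX:24054921-24054970, plus strand: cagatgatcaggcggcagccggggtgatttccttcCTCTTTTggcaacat
EIF2S3B, chr12:10505855-10505904, plus strand: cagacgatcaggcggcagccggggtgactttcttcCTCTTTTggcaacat

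EIF2S3, the gene of the gamma subunit of eIF2, and its autosomal copy EIF2S3B differed at 3 of these 50 bases. For comparison, EIF3I, EIF1 and EIF4EBP2 are shown as factors without such a run at the annotated start. The first 2 were among the factors with the highest Bru to Control ratio in U251, and the last had the lowest.
EIF3I, chr1:32222372-32222421, plus strand: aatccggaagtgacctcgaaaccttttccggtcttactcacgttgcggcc
EIF1, chr17:41688850-41688899, plus strand: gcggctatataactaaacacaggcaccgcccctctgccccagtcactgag
EIF4EBP2, chr10:70404110-70404159, plus strand: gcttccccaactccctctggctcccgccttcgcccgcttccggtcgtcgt

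Expression was measured as FPKM, which scales the fragments of a gene by its length and by a size given to the library. The fragments behind each value, called reads here, could be recovered from the files and summed to between 17083896 and 21453561 per library. VIM and CD44, which mark mesenchymal glioma cells, were high in all 4 libraries, at 606 to 701 and 94.5 to 125 FPKM. Of 7 glial and glioma markers, 5 reached 1 FPKM in each U251 library and 3 in each U87 library. The third beside VIM and CD44 was NES in U87 Control, at 1.46 FPKM, and OLIG2 in U87 Bru, at 1.05. SOX2 was at 129 and 91.2 FPKM in U251 but at 0 and 0.0457 FPKM in U87. The summed glial list went from 1083 to 843 FPKM with Bru in U251 and from 785 to 744 in U87, and its part in the results on the factors was not tested. No immune or endothelial marker reached 1 FPKM in any library, with CD3E listed at 0 in all of them, and of the epithelial list only KRT18 did, at 9.67 and 14.3 FPKM in U251 Control and U251 Bru. Of 3 neuronal markers, SYT1 reached 1 FPKM in all 4 libraries, at 6.02 and 4.18 FPKM in U251 and 2.22 and 1.73 in U87, and SNAP25 in all but U251 Bru, at 1.89 and 0.948 FPKM in U251 and 6.28 and 5.65 in U87, while RBFOX3 stayed below 0.04. The part of these markers in the results on the factors was not tested either.

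The change with Bru is given as a log2 ratio, the log2 of FPKM + 0.1 in the Bru library over FPKM + 0.1 in the Control library of the same line. Genes were compared if their FPKM averaged 1 or more over these libraries, which left 12949 of all genes and 60 of the 64 factors. The 4 left out were EEF1G, EIF4E1B, EIF4E3 and EIF4EBP3. Beside it stands a 95% interval, taken from the gene's reads by the exact Clopper-Pearson method and without the added 0.1. It covers counting error only. With 1 library per condition no replicate error exists and no difference was tested, so a log2 ratio past 0.5 or past 1 in size is a description of these libraries. Total RNA of a culture cannot tell fewer cells of one kind from less RNA in each cell.

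The factors were mostly higher in Bru than in Control in U251, and less so in U87. In U251, 49 of the 60 factors had a log2 ratio above 0, against 47.2% of all genes compared, with a median of 0.26 where the median of all genes was -0.03. In U87, 37 of the 60 were above 0, against 42.3% of all genes, with a median of 0.08 where all genes had -0.04. The quartiles of the factors were 0.06 and 0.50 in U251, and -0.09 and 0.22 in U87. A log2 ratio above 0.5 was seen for 16 factors in U251, against 14.3% of all genes, and for 2 in U87, against 5.75%. Below -0.5 there were 2 factors in U251, where 19.1% of all genes lay, and 2 in U87, where 6.46% did. Past 1, EIF3I was the only factor in U251, and EIF3CL and EEF1A2 were the only ones in U87. Among all genes 3.36% and 1.92% lay above 1 in the 2 lines. No factor was below -1, where 5.44% and 1.41% of all genes were. The factors are protein-coding by rule, while all genes include other kinds. Among the 10851 protein-coding genes compared, 1348 were above 0.5 in U251 and 217 in U87, and 1954 and 547 were below -0.5. Above 1 there were 223 and 32 of them.

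Together the 64 genes took 2.12% of the reads of U251 Control and 2.85% of those of U251 Bru, and 2.0% and 2.20% of those of U87 Control and U87 Bru. EEF1A1 and EEF2 carried a large share of these reads. Without them, the other factors took 1.03% and 1.34% of the reads of U251 Control and U251 Bru, and 1.17% and 1.25% of those of U87 Control and U87 Bru. In both lines the share was higher with Bru, with and without these 2 genes.

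**Figure D1:**
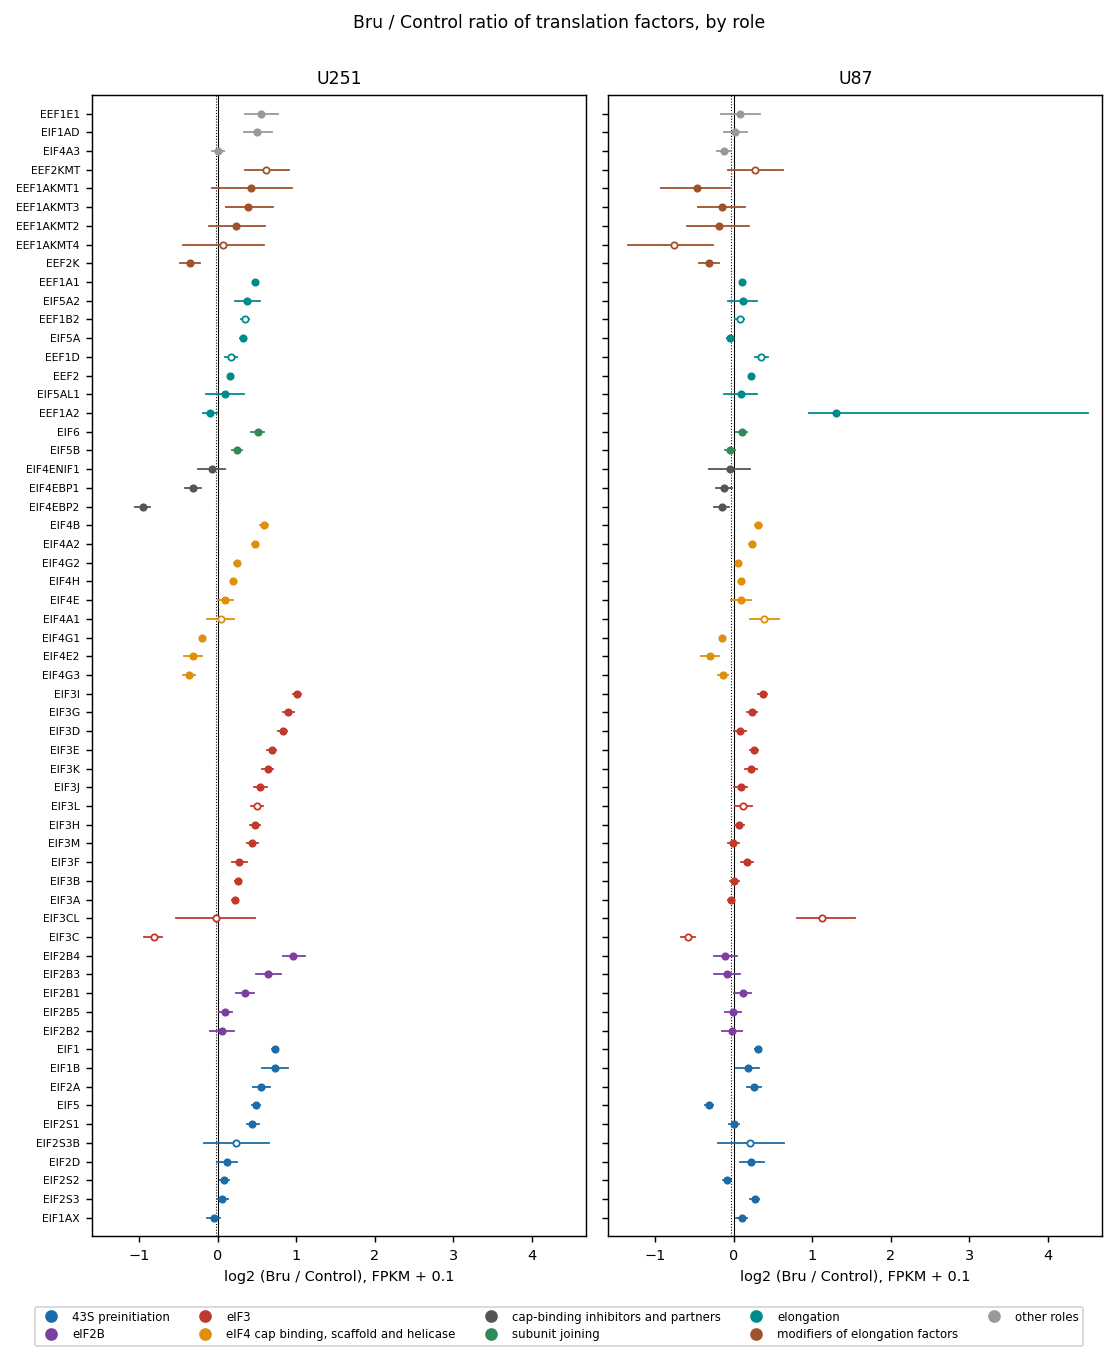
Log2 ratio of Bru to Control for the 60 factors compared, by role, in U251 (left) and U87 (right). Points are the ratios of FPKM + 0.1, bars the exact 95% counting intervals, open points the genes that share at least 25% of their sequence or exon bases with another gene, and the dotted line is the median of all 12949 genes. In U251 most points of eIF3 lie to the right of 0, with EIF3C and EIF4EBP2 far to the left, and in U87 the points crowd around 0.

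Among the factors of the 43S preinitiation complex, 9 of 10 were above 0 in U251 and 8 of 10 in U87, with medians of 0.33 and 0.19. EIF1, which guards the fidelity of start codon choice, was at 120 and 198 FPKM in U251 Control and U251 Bru and at 125 and 155 in U87 Control and U87 Bru. Its log2 ratio was 0.73 (95% interval 0.69 to 0.77) in U251 and 0.31 (0.27 to 0.35) in U87. Its paralog EIF1B was less abundant, at 12.8, 21.1, 20.4 and 23.0 FPKM in the same order, and had log2 ratios of 0.72 (0.56 to 0.89) and 0.17 (0.03 to 0.33). The Bru library was the higher one in both lines for both paralogs.

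EIF2A, a factor that can bring initiator tRNA to the ribosome apart from eIF2, was at 14.8 and 21.7 FPKM in U251 Control and U251 Bru and at 25.2 and 30.0 in U87 Control and U87 Bru. Its log2 ratios were 0.55 (0.45 to 0.66) and 0.25 (0.16 to 0.34). The 3 subunits of eIF2 itself did not move as a unit. EIF2S1, the alpha subunit that stress kinases phosphorylate, was at 0.44 in U251 and at 0.00 in U87. EIF2S2, the beta subunit, was at 0.08 and -0.08, and EIF2S3, the gamma subunit, at 0.06 and 0.27. EIF1AX, the X-linked gene of eIF1A, was the only member of this group below 0 in U251, at -0.05 (-0.14 to 0.03), and was at 0.10 (0.03 to 0.17) in U87.

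EIF5, the GTPase-activating protein of eIF2, went opposite ways in the 2 lines. U251 Control had 30.3 FPKM and U251 Bru 42.6, while U87 Control had 42.6 and U87 Bru 34.2. Bru thus stood above Control in U251, with a log2 ratio of 0.49 (0.44 to 0.54), and below it in U87, with -0.32 (-0.37 to -0.27). EIF5 was added to the genes described in full after its values were seen.

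The 5 subunits of eIF2B were all above 0 in U251, with a median of 0.34, and between -0.11 and 0.11 in U87, where 4 of the 5 were below 0. EIF2B4, the delta subunit (chromosome 2, 27364352 to 27370486), was at 5.78 FPKM in U251 Control and 11.3 in U251 Bru, from 647 and 1121 reads, and at 8.71 and 8.08 FPKM in U87 Control and U87 Bru. It was 1.96-fold higher with Bru in U251, a log2 ratio of 0.96 (0.83 to 1.11), and at -0.11 (-0.25 to 0.03) in U87. EIF2B3, the gamma subunit, which with epsilon forms the catalytic pair, had log2 ratios of 0.64 (0.48 to 0.80) and -0.09 (-0.26 to 0.08), from 7.90 and 12.3 FPKM in U251 and 10.1 and 9.53 in U87.
The epsilon subunit EIF2B5 itself was at 0.10 and -0.01, EIF2B1 (alpha) at 0.34 and 0.11 and EIF2B2 (beta) at 0.05 and -0.02, so that the subunits of this complex ran from 0.05 to 0.96 in U251.

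The eIF3 complex, the large scaffold that holds the small subunit, the other factors and the mRNA together, included the highest ratio in U251. Of its 14 genes 12 were above 0 in U251, 6 of them above 0.5, and 11 were above 0 in U87. The medians were 0.48 and 0.11. Without EIF3C and its copy EIF3CL, all 12 remaining subunit genes were above 0 in U251, from 0.22 to 1.01, and 10 of the 12 in U87, from -0.03 to 0.37.

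EIF3I, the subunit at the rim of the complex that is built around WD repeats (ENSG00000084623, chromosome 1, 32221928 to 32231604), was the most abundant of them. U251 Control had 132 FPKM, U251 Bru 266, U87 Control 164 and U87 Bru 211, from 4786, 8514, 5099 and 6336 reads. This was 2.01-fold higher with Bru in U251, a log2 ratio of 1.01 (0.96 to 1.06), and 1.29-fold higher in U87, a log2 ratio of 0.37 (0.31 to 0.42). EIF3G, which binds RNA and sits beside EIF3I, came next, from 42.1 to 78.6 FPKM in U251 and from 54.7 to 64.3 in U87, with log2 ratios of 0.90 (0.84 to 0.97) and 0.23 (0.17 to 0.30). EIF3D, a subunit that can itself bind the cap, was at 43.2 and 76.6 FPKM in U251 but at 35.4 and 37.4 in U87, with log2 ratios of 0.82 (0.77 to 0.89) and 0.08 (0.00 to 0.16). In all 3 the U251 Bru library was the highest of the 4.

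EIF3E, EIF3K and EIF3J followed with 0.69, 0.63 and 0.54 in U251 and 0.26, 0.22 and 0.09 in U87. The large subunits EIF3A and EIF3B, on which the complex is assembled, had the smallest ratios above 0, at 0.22 (0.18 to 0.25) and 0.25 (0.21 to 0.29) in U251 and at -0.03 and 0.01 in U87. Across the 12 subunits the ratio went down with the length of the gene's exons, which ran from 1725 bases for EIF3I to 9431 for EIF3F, with Spearman's rho of -0.825 in U251 and -0.594 in U87. Across all 60 factors rho with length was -0.315 and -0.144, and across the 10851 protein-coding genes compared it was -0.125 and -0.0466. These are descriptions across genes of the same libraries, and genes are not independent replicates. The part of length in the eIF3 ratios was not tested.

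EIF3C, the subunit that touches eIF1 and eIF5, was the exception. It was at 12.3 FPKM in U251 Control and 6.92 in U251 Bru, and at 21.6 and 14.4 in U87, so that Bru was the lower library in both lines. Its log2 ratio was -0.82 (-0.94 to -0.71) in U251 and -0.58 (-0.67 to -0.50) in U87, and it was the only factor past 0.5 in the same direction in both lines. EIF3CL, a near-identical copy that lies close by (chromosome 16, 28379579 to 28403879, against 28688558 to 28735730 for EIF3C), was at 1.14 and 1.12 FPKM in U251 and at 1.65 and 3.72 in U87. It had 92 and 200 reads in U87 and a log2 ratio of 1.13 (0.81 to 1.55) there, against -0.03 (-0.54 to 0.47) in U251.

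Both of these genes are uncertain, because reads can be assigned to either copy. Of the 50-base stretches in the transcripts of EIF3CL, 97.2% also occur in transcripts of other genes, nearly all in EIF3C, and 45.4% of those of EIF3C occur elsewhere, mostly in EIF3CL. Added together, the 2 genes had 1871 and 959 reads in U251 and 2812 and 1950 in U87. The summed reads gave log2 ratios of -0.79 (-0.90 to -0.67) and -0.47 (-0.56 to -0.39), so the reads assigned to the pair were lower with Bru in both lines. How reads that match both copies were counted is not given, and any left out are missing from this sum. EIF3CL held 74 of 1871 reads of the pair in U251 Control, and EIF3C held 96.0% of them there and 89.7% in U87 Bru.

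**Figure D2:**
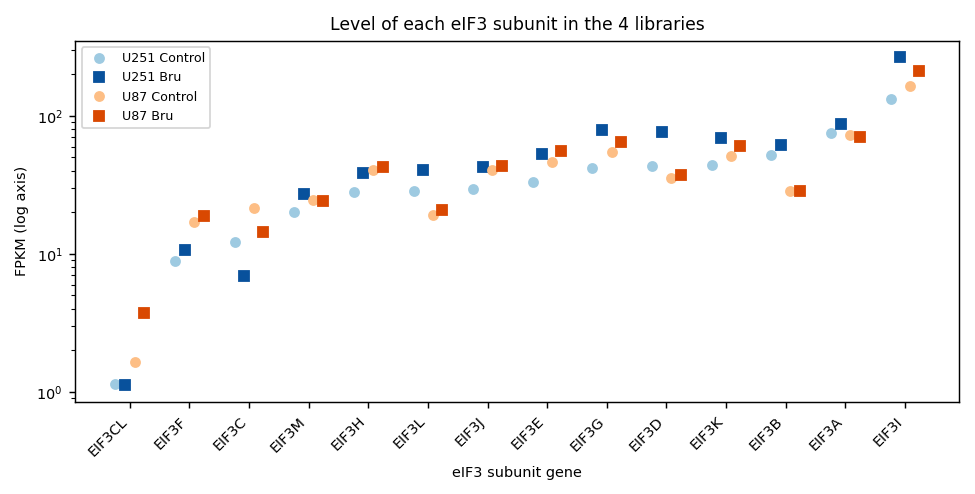
FPKM of each eIF3 subunit gene in the 4 libraries on a log axis, ordered by the level in U251 Control; circles are Control and squares Bru. The U251 Bru square lies above the U251 Control circle for every subunit except EIF3C and EIF3CL, and for EIF3C the square is the lower one in both lines.

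Among the eIF4 factors that bind the cap and unwind the leader, 9 of 11 were compared, and 6 of the 9 were above 0 in each line, with medians of 0.10 and 0.09. EIF4B, which stimulates the helicase and has a pyrimidine start, was at 47.1 and 70.7 FPKM in U251 and at 69.7 and 86.4 in U87. Its log2 ratios, 0.59 (0.54 to 0.63) and 0.31 (0.27 to 0.35), were the highest of the group in U251 and second in U87. EIF4A2, the helicase paralog with a pyrimidine start, was at 123, 171, 77.6 and 91.2 FPKM in U251 Control, U251 Bru, U87 Control and U87 Bru. Its log2 ratios were 0.47 (0.44 to 0.50) and 0.23 (0.19 to 0.28). Both were higher with Bru in each line.

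EIF4A1, the helicase paralog usually taken as the main one, was only at 5.27, 5.40, 4.52 and 5.91 FPKM in the same order, with log2 ratios of 0.03 (-0.14 to 0.21) and 0.38 (0.20 to 0.57). Its values are uncertain, since 48.6% of its exon bases lie in exons of other annotated genes and 41.0% of its 50-base stretches occur in their transcripts. With the reads of SENP3-EIF4A1, AC016876.2 and the pseudogenes EIF4A1P10 and EIF4A1P2 added, the log2 ratios were 0.28 (0.14 to 0.42) in both lines. Most of the added reads were those of EIF4A1P10, at 209, 300, 262 and 278 in the same order. This pseudogene holds only 6.35% of the 50-base stretches of EIF4A1. SENP3-EIF4A1 had 8, 9, 35 and 26 reads, and AC016876.2 at most 1 per library. Any reads left out for lying on more than 1 gene are not in the sum. The part of the overlap with other genes in the low level of EIF4A1 was not tested. EIF4A3, the paralog that belongs to the exon junction complex and not to initiation, was at 27.4 FPKM in both U251 libraries and at 23.4 and 21.4 in U87, with log2 ratios of 0.00 (-0.08 to 0.08) and -0.13 (-0.22 to -0.04).

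The scaffolds differed by paralog. EIF4G1, the main scaffold, was at 164 and 143 FPKM in U251 and at 146 and 131 in U87, with log2 ratios of -0.20 (-0.22 to -0.17) and -0.15 (-0.18 to -0.12). EIF4G3, its closest paralog, had -0.37 (-0.45 to -0.29) and -0.14 (-0.21 to -0.08), from 15.8 and 12.3 FPKM in U251 and from 23.6 and 21.4 in U87. EIF4G2, which lacks the eIF4E-binding part and serves cap-independent initiation, had 0.24 (0.21 to 0.27) and 0.05 (0.02 to 0.08), from 87.9 and 104 FPKM in U251 and from 136 and 141 in U87. Both scaffolds that bind eIF4E were thus lower with Bru in each line, and EIF4G2 was higher.

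The cap-binding protein EIF4E was at 6.0 and 6.42 FPKM in U251 and at 4.11 and 4.39 in U87, with log2 ratios of 0.10 (0.00 to 0.20) and 0.09 (-0.03 to 0.22). EIF4E2, a cap-binding paralog that represses translation, was lower with Bru by almost the same amount in both lines, from 9.50 to 7.61 FPKM and from 11.6 to 9.37, with log2 ratios of -0.32 (-0.44 to -0.20) and -0.30 (-0.42 to -0.19). EIF4E3 stayed between 0.20 and 0.37 FPKM with 38 to 72 reads, and EIF4E1B had at most 1 read in a library. EIF4H, an accessory of the helicase and 1 of the 5 most abundant factors, was at 217 and 249 FPKM in U251 and at 235 and 251.03 in U87, with log2 ratios of 0.20 and 0.10.

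All 3 of the 4 inhibitors and partners of eIF4E that were compared lay below 0 in both lines, with medians of -0.32 and -0.13. EIF4EBP2, a 4E-BP (ENSG00000148730, chromosome 10, 70404379 to 70428618), was at 19.0 and 9.81 FPKM in U251 and at 14.1 and 12.7 in U87. Control was 1.94-fold higher than Bru in U251, a log2 ratio of -0.95 (-1.05 to -0.86), the lowest of the 60 factors, and the log2 ratio in U87 was -0.15 (-0.25 to -0.06). EIF4EBP1, the 4E-BP best known as a target of mTOR, was at 87.2 and 69.9 FPKM in U251 and at 88.0 and 80.5 in U87, with log2 ratios of -0.32 (-0.42 to -0.22) and -0.13 (-0.23 to -0.03).
EIF4ENIF1, which carries eIF4E into the nucleus, had -0.08 (-0.26 to 0.10) and -0.05 (-0.32 to 0.20), which became 0.01 and 0.00 when the libraries were scaled to their 75th percentile. EIF4EBP3 had 2 to 10 reads per library and shares most of its exons with a readthrough gene. Summed, the 4E-BP genes were at 106 and 79.9 FPKM in the Control and Bru libraries of U251 and at 102 and 94.0 in those of U87.

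EIF5B and EIF6 act when the subunits join, the first as the GTPase of that step and the second by keeping free large subunits apart. EIF6 was at 62.9 and 89.5 FPKM in U251 and at 106 and 114 in U87, with log2 ratios of 0.51 (0.43 to 0.59) and 0.10 (0.03 to 0.17). EIF5B had 0.24 (0.18 to 0.30) and -0.05 (-0.11 to 0.01), from 25.8 and 30.5 FPKM in U251 and from 33.3 and 32.2 in U87.

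The elongation factors included the most abundant of all factors. Of the 8 compared, 7 were above 0 in each line, with medians of 0.24 and 0.11, and none was past 0.5 in U251. EEF1A1 (ENSG00000156508, chromosome 6, 73515750 to 73523797) was at 1303 and 1817 FPKM in U251 and at 841 and 908 in U87, and stood between rank 10 and rank 23 among all genes in these libraries. It was 39.4% higher with Bru in U251, a log2 ratio of 0.48 (0.47 to 0.49), and 7.94% higher in U87, a log2 ratio of 0.11 (0.10 to 0.12). EEF2, the translocase, was at 849, 941, 832 and 965 FPKM, with log2 ratios of 0.15 (0.13 to 0.16) and 0.21 (0.20 to 0.23), and was thus higher with Bru by a like amount in both lines.

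Processed pseudogenes share part of the EEF1A1 sequence. EEF1A1P5, which holds 18.1% of its 50-base stretches, had 7036, 9919, 3676 and 4034 reads in the 4 libraries. With EEF1A1P5 and 4 further pseudogenes added, the log2 ratios were 0.49 for U251 and 0.11 for U87, within 0.01 of those of the gene alone. EEF1A2, the paralog of neurons and muscle, differed in level between the lines more than any other factor. It was at 19.7 and 18.4 FPKM in U251, with 2025 and 1670 reads, and at 0.0451 and 0.257 FPKM in U87, with 4 and 22 reads.
Its log2 ratio was -0.10 (-0.19 to -0.01) in U251. In U87 it was 1.301 on the scale of FPKM + 0.1 and 2.51 (0.96 to 4.51) from the reads alone, and with a pseudocount of 1 it was 0.27, so that its size there depends on the added constant.

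EIF5A was at 220 and 275 FPKM in U251 and at 340 and 328 in U87, with log2 ratios of 0.32 (0.29 to 0.36) and -0.05 (-0.08 to -0.02), the second becoming 0.00 under scaling to the 75th percentile. Its paralog EIF5A2 was at 5.03, 6.54, 4.63 and 5.01 FPKM, with 0.37 (0.22 to 0.54) and 0.11 (-0.07 to 0.30). Of the subunits of the exchange factor that reloads eEF1A, EEF1B2 had 0.34 (0.29 to 0.40) and 0.07 (0.02 to 0.13) and EEF1D had 0.17 (0.09 to 0.24) and 0.35 (0.27 to 0.44), from 15.1 and 17.0 FPKM in U251 and 11.9 and 15.2 in U87. EEF1B2 and EEF1D are uncertain. Of the 50-base stretches of EEF1B2 31.4% occur in other genes, and 34.0% of the exon bases of EEF1D lie in exons of other genes. EEF1G, the third subunit (chromosome 11, 62559601 to 62574086), was listed at 0 in all 4 libraries. Of its exon bases 99.9% lie in exons of other annotated genes, and AP002990.1, which holds 94.7% of its 50-base stretches, had 37 to 53 reads per library. The part of this overlap in the zeros was not tested, and no statement on the expression of EEF1G can be drawn from these values.

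The enzymes that modify elongation factors were mostly of low level, and 5 of 6 were above 0 in U251 while 5 of 6 were below 0 in U87, with medians of 0.31 and -0.25. EEF2K, the kinase that inactivates eEF2, was lower with Bru in both lines, from 7.41 to 5.77 FPKM and from 7.87 to 6.32, with log2 ratios of -0.35 (-0.49 to -0.23) and -0.31 (-0.45 to -0.19). EEF2KMT, a lysine methyltransferase of eEF2, had 0.61 (0.35 to 0.90) and 0.26 (-0.08 to 0.63), from 190, 259, 127 and 148 reads, and 25.7% of its 50-base stretches also occur in other genes. EEF1AKMT1 and EEF1AKMT4, methyltransferases of eEF1A, were the 2 lowest of these enzymes in U87, at -0.47 (-0.93 to -0.05) and -0.76 (-1.35 to -0.26). They had 109 and 75 and 83 and 46 reads there, and were at 0.42 (-0.07 to 0.94) and 0.07 (-0.44 to 0.58) in U251. EEF1AKMT4 is uncertain, since 46.8% of its exon bases lie in exons of other annotated genes. Of the genes with other roles, EEF1E1, a scaffold of the tRNA synthetase complex, had 0.55 (0.35 to 0.76) and 0.08 (-0.17 to 0.33), and EIF1AD had 0.50 (0.33 to 0.68) and 0.02 (-0.13 to 0.17).

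The 2 lines were then set side by side. Of the 60 factors, 34 were above 0 in both lines, 8 below 0 in both, 15 above in U251 and below in U87, and 3 the reverse. Over the 12949 genes compared, the same counts were 3635, 4862, 2417 and 1799. The log2 ratio was the higher one in U251 for 44 of the 60 factors, and for 6594 of the 12949 genes. The median difference, U87 minus U251, was -0.26 over the factors, against -0.01 over all genes compared. A difference below -0.5 was seen for 10 factors, against 13.7% of all genes, and above 0.5 for 3, against 15.5%. The 3 with the greatest difference were EEF1A2, at 1.40, EIF3CL, at 1.156 with an exact conditional 95% interval of 0.57 to 1.84, and EIF2B4, at -1.07 (-1.28 to -0.88). This order depends on the added constant. With a pseudocount of 1, the U251 and U87 ratios were -0.09 and 0.27 for EEF1A2, -0.02 and 0.83 for EIF3CL and 0.86 and -0.10 for EIF2B4, so that EEF1A2 was not first. EIF3CL is uncertain because of its copy. EIF5 differed by -0.81 (-0.88 to -0.73) and EIF4EBP2 by 0.80 (0.67 to 0.94). Spearman's rho between the lines' ratios was 0.353 over the 60 factors, 0.398 over all genes and 0.480 over the protein-coding genes compared. Within the 12 eIF3 genes it was 0.776.

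**Figure D3:**
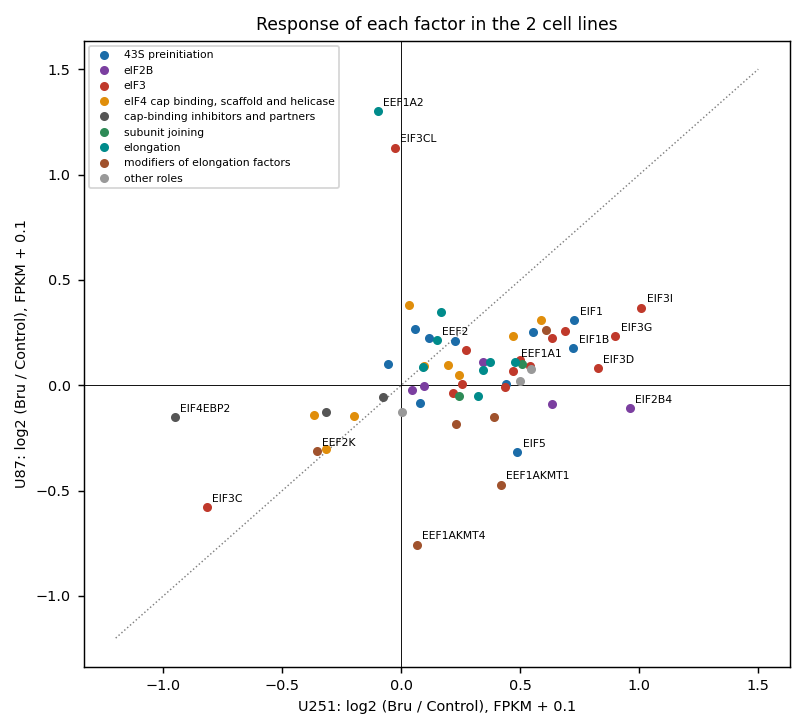
Log2 ratio of Bru to Control of each of the 60 factors in U251 (horizontal) and U87 (vertical), coloured by role, with equal ratios on the dotted line. Most points lie below the dotted line on the right, 44 of the 60 having the higher ratio in U251, while EEF1A2 and EIF3CL stand far above it.

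The Control libraries of the lines were also compared. The log2 ratio of U87 Control to U251 Control was past 1 in size for 1 of the 60 factors, EEF1A2, which was 436-fold higher in U251, from 2025 and 4 reads, against 30.4% of all genes. EEF1AKMT1 came nearest after it, at 0.997, with 4.50 FPKM in U87 Control and 2.21 in U251 Control. The median over the factors was 0.30, against -0.01 over all genes, so that the median factor was slightly higher in U87. Summed over the 64 genes, the share of reads was 2.12% in U251 Control and 2.0% in U87 Control. Without EEF1A1 and EEF2 it was 1.03% and 1.17%.

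Factors with a pyrimidine start had higher median ratios than the others in both lines, without a test. The 13 with such a start were all above 0 in U251, from 0.06 for EIF2S3 to 0.82 for EIF3D, with a median of 0.43, and 12 of them were above 0 in U87, with a median of 0.21. The 34 factors compared whose RefSeq start had no such run had medians of 0.23 and 0.00, and 26 and 17 of them were above 0. Without the uncertain genes the medians were 0.47 and 0.22 for 11 factors with the run and 0.24 and 0.00 for 31 without it. The groups overlapped widely, and EIF3I and EIF2B4, the highest in U251, had no such run. Over all 8979 genes compared with a RefSeq start, 698 had a pyrimidine start and 8281 did not. Among genes that are neither factors nor ribosomal proteins, 637 with a pyrimidine start had medians of -0.07 and -0.06, and 8228 without one had -0.04 and -0.05.
Of the ribosomal protein genes with a RefSeq start, 48 with the run had medians of 0.69 and 0.33 and 19 without it 0.71 and 0.26. The 8 factors compared from a list of known TOP mRNAs were all above 0 in both lines, with medians of 0.41 and 0.19.

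The promoters, 250 bases before and 50 bases after each start, were also searched for 2 short motifs. CACGTG, the E-box core that MYC and its relatives bind, occurred in 19.1% of the 68 start regions of the factors and in 7.26% of all start regions, and CCGGAAG on either strand, the core of ETS sites, in 23.5% and 10.3%. All start regions were not limited to genes expressed here. Of the 8979 genes compared with a RefSeq start, 1165 held CACGTG and 7814 did not, against 12 and 35 of the factors. For CCGGAAG the counts were 2129 and 6850 over these genes and 14 and 33 over the factors. Of the starts printed above, EIF3I holds CCGGAAG, EIF4EBP2 holds it on the other strand and EIF4B holds CACGTG. EIF3I had the highest and EIF4EBP2 the lowest ratio of the factors in U251. The U251 medians were 0.24 for 12 factors with CACGTG and 0.25 for 35 without it. For CCGGAAG they were 0.36 for 14 factors with it and 0.23 for 33 without it, and 0.40 and 0.24 when the uncertain genes were left out. Among genes that are neither factors nor ribosomal proteins, the U251 medians were 0.07 for 2091 with CCGGAAG and -0.08 for 6774 without it, and 0.01 and -0.05 for those with and without CACGTG. In U87 the 4 medians of the factors lay between 0.07 and 0.09.

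The other genes of the pathway were read from lists in the same way. The cytosolic ribosomal proteins had higher ratios than the factors, with 82 of 84 above 0 and a median of 0.69 in U251 and 81 of 84 and 0.32 in U87, and 62 and 9 of them were above 0.5. Of 8 termination and recycling genes, 7 were above 0 in U251 and 4 in U87, with medians of 0.42 and 0.01. The 4 poly(A)-binding genes were near 0, with medians of 0.02 in each line. Of 7 enzymes of the hypusine and diphthamide pathways, which modify eIF5A and eEF2, 5 were above 0 in each line, with medians of 0.33 and 0.06, and DOHH, which completes hypusine, was at 0.75 and 0.21. The regulators of TOP mRNAs and of the cap complex had medians of -0.04 and -0.03 over 8 genes, and PDCD4, an inhibitor of eIF4A, was lowest in both lines, at -0.77 and -0.28.

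The 6 genes of the eIF2 kinases and of their phosphatase went separate ways. PPP1R15A, the stress-induced subunit that brings the phosphatase to eIF2, was at 42.3 and 101 FPKM in U251 and at 44.0 and 65.1 in U87, with log2 ratios of 1.25 and 0.56. EIF2AK3, the kinase PERK of the endoplasmic reticulum, was at 5.19, 2.44, 4.34 and 3.29 FPKM, with -1.06 and -0.39. EIF2AK1, EIF2AK2 and EIF2AK4 lay between -0.25 and 0.01 in both lines. PPP1R15B, the other phosphatase subunit of the list, was at 0.21 and 0.12. Both phosphatase subunits were thus higher and PERK lower with Bru in each line, with PPP1R15A changing more than PPP1R15B.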

How the data were processed

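Total RNA of 4 cultures was sequenced as paired-end reads after library preparation with the NEB Next Ultra kit, which keeps no strand. The submitters' processing notes name HISAT2 2.0.5, StringTie 1.3.3b, featureCounts 1.5.0-p3, DESeq2 1.16.1 and the build hg18, but the coordinates of 58724 of the 58735 genes, and of all 64 factors, equal GENCODE 29 on GRCh38. How reads on more than 1 gene were counted is not given in the sources used here. Each library has a deposited table of FPKM values made by the authors. FPKM multiplied by the deposited gene length was a whole multiple of 1 step for 100% of values above 0, within 0.01 reads. This gave the reads and the library sizes behind the FPKM, 17406238 to 20974002. These sizes were not the sums of the reads on genes. They were lower than the sums in both Control libraries and higher in both Bru libraries. U251 Control had 20974002 against 21453561, and U251 Bru 18533374 against 17847910. U87 Control had 18070193 against 18260975, and U87 Bru 17406238 against 17083896. For 1 kilobase of exon, 3 reads are 0.143 to 0.172 FPKM.

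Log2 ratios used a pseudocount of 0.1 and a minimum mean FPKM of 1 for each gene. Intervals are exact 95% Clopper-Pearson intervals, and those of a difference between lines are exact conditional ones, computed with scipy 1.17.1. PCR copies of a molecule cannot be seen in these files, so reads are not all independent molecules and the intervals cover counting error only. No count model and no test was run, since each condition has 1 library. The scripts were tested on simulated data.

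A factor was called uncertain, as 11 of the 64 were, when at least 25% of its exon bases lay in exons of other GENCODE 29 genes or at least 25% of its 50-base stretches occurred in their transcripts. Described in full were, by rule, the 3 factors of each role with the largest mean change, those past 0.5 the same way in both lines or past 1 in 1 line, 7 sets of paralogs, the 5 most abundant and the 3 that differed most between lines. EIF5, EIF3D, EIF3G, EIF2S1, EIF2S2, EIF2S3, EIF1AX, EIF2B2, EIF2B5, EIF3A, EIF3B, EIF3E, EIF3J, EIF3K, EEF1B2, EEF2K and, outside the factors, DOHH, PDCD4, PPP1R15A and EIF2AK3 were named after their values were seen or as the rest of their complex. The members, roles and lists were chosen with earlier results of these data known. EEF1AKNMT is called METTL13 in the files and was not taken by the rule.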

Additional observations from a re-analysis of the deposited data

Results flagged for a closer look

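The labels give 1 library per condition, so no library could be compared with replicates of its own group. For 4 factors the Bru library stood above Control in one line and below it in the other, with counting intervals that leave out 0 in both lines. The difference in log2 ratio, U87 minus U251, was -0.81 for EIF5, -0.37 for EIF5A, -0.16 for EIF2S2 and 1.40 for EEF1A2. These differences were not tested against variation between cultures. When the libraries were scaled to their 75th percentile, the U87 ratio came to 0.00 in EIF5A and to -0.03 in EIF2S2. The U251 ratio of EEF1A2 came to -0.01 under that scaling. EIF5 was at 0.57 in U251 and at -0.26 in U87 under it. The U87 ratio of EEF1A2 rests on 4 and 22 reads.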

How the results depend on the processing

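No paired analysis was possible because each condition has 1 library and the labels give no replicate numbers. The median log2 ratio of the factors was above 0 under all 10 other settings of pseudocount, scaling and filter, from 0.24 to 0.35 for U251 and from 0.07 to 0.14 for U87. The number above 0 was 42 to 52 in U251 and 33 to 44 in U87, and the number above 0.5 in U251 was 13 to 24. These counts are not over the same number of factors in every setting. The lowest numbers above 0, 42 and 33, came with a minimum mean FPKM of 5, which kept 51 factors. The U251 median was 0.26 with the library sizes of the deposited FPKM. It was 0.35 both with scaling to the 75th percentile and with scaling to the total of the reads. In U87 the number above 0.5 was 1 with a pseudocount of 1 and with a minimum mean FPKM of 5, which also left 1 factor below -0.5. Leaving out the uncertain factors, an alternative chosen after seeing the data, left 1 factor below -0.5 in U251 and 1 above 0.5 and 0 below -0.5 in U87. No value past 0.5 in size changed its sign. Among 518 values of single factors, 67 moved by more than their counting interval and 8 had another sign, all of them within 0.06 of 0, in EIF3CL and EIF4A3 in U251, EIF5A and EIF5B in U87 and EIF4ENIF1 in both. The median of the modifiers in U251 was -0.35 with a minimum mean FPKM of 5, which left EEF2K alone, and the median of eIF2B in U87 reached 0.03 with another scaling. With 1 library per condition, variation between cultures is not covered by any value here.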
